A study of Mus musculus with 120 samples.

Results

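The apolipoproteins described here are 10 genes of lipoprotein metabolism, Apoa1, Apoa2, Apoa4, Apoa5, Apob, Apoc1, Apoc2, Apoc3, Apoe and Apom. A probe set was taken when the platform annotation gave it a single gene symbol among these 10. This rule found 16 of the 45,037 probe sets, 15 on the MOE430A array and 1 on the MOE430B array, for 10 of the 18,193 genes that probe sets name singly. No probe set with several symbols named a member. Apoa1 had 4 probe sets, Apoa4, Apob and Apom had 2 each, and the other 6 genes had 1 each. No filter on low values was applied, so all 16 were tested.

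The livers came from 60 F2-ob/ob mice of a cross between C57BL/6J and BTBR, 31 females and 29 males, chosen from a larger set of F2 mice by a selective phenotyping algorithm. Every mouse was obese because it was homozygous for the ob mutation of leptin, and no lean mouse was on an array, so leptin deficiency is common to all values. Livers were taken after a 4 h fast at 14 weeks of age, and the diet was chow. RNA from each liver was put on 1 MOE430A and 1 MOE430B array, and each mouse is a separate animal measured once on each type. Genotypes are the letters A, H and B, where H is the heterozygote. Which founder strain the letters A and B stand for was not stated in the labels or methods.

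Apolipoproteins coat the particles that carry triglyceride and cholesterol in plasma. The liver builds very low density lipoprotein around a molecule of Apob, and it also secretes Apoa1 and Apoa2 for high density lipoprotein. The Apoc proteins and Apoa5 set how quickly plasma triglyceride is hydrolysed, and Apoe is a ligand for uptake of remnants by the liver. Apoa1, Apoc3, Apoa4 and Apoa5 stand side by side on Chromosome 9, and Apoc2, Apoc1 and Apoe lie in another cluster on Chromosome 7.

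Promoters are shown for Apoa1 and Apoa4, genes of 1 cluster on Chromosome 9 whose mRNA levels correlated across the mice, and for Apoc2, whose level followed genotype on its own chromosome. RefSeq promoters (build GRCm38.p6, 250 bases before to 50 after the start) matched 8 of the 10 genes with 12 start sites, and Apoc1 and Apoc3 are named only. Capitals mark matches to the motifs described after the sequences.
Apoa1 (chr9:46228380-46228679, plus strand): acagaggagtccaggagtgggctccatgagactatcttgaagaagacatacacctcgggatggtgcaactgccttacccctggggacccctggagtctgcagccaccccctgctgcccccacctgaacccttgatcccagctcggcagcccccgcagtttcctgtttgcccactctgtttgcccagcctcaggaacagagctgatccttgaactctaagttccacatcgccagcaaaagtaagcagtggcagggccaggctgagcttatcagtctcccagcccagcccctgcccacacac
Apoa4 (chr9:46240594-46240893, plus strand): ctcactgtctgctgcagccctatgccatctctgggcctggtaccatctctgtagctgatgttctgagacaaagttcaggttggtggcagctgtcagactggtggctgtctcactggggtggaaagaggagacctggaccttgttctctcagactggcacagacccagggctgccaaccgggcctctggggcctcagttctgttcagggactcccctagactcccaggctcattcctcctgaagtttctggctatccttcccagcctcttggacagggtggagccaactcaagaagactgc
Apoc2 (chr7:19677892-19678191, minus strand): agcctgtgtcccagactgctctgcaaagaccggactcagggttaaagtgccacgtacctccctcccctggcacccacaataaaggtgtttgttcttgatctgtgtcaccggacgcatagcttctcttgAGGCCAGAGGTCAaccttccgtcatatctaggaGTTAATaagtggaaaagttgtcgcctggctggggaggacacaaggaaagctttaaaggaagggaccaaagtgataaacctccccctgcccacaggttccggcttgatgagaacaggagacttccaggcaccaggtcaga

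Both strands were searched for the nuclear receptor direct repeat AGGTCANAGGTCA, the HNF4A core CAAAGTC, the HNF1 motif GTTAAT, the TATA box TATAAA, the CEBP motif TTGCNNAA, the SREBP motif TCACNCCA and the FXR inverted repeat AGGTCANTGACCT. The Apoc2 promoter held a direct repeat with 1 mismatch (bases −122 to −110 from the start) and an HNF1 motif (−89 to −84). Direct repeats with at most 1 mismatch stood in 0.554% of the 32,851 promoters of the table, and HNF1 motifs, which Apoe also had at another start site, in 7.1%. The windows of Apoa1 and Apoa4 held none of these letters. A TATA box was found for 4 member genes, Apoa2, Apoa5, Apob and Apoe, and stood in 13.6% of all promoters. The CEBP motif was found for Apoa2 and Apob (10.8% of all promoters) and the SREBP motif for Apoe (4.36%). The exact direct repeat (0.0396% of all promoters), the HNF4A core (4.44%) and the FXR repeat (0.00913%) were found for no member.

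Values are RMA expression levels on the log2 scale, and a probe set is written as its gene symbol joined to its identifier. The ending _x_at marks a probe set whose probes may also match other transcripts. All 16 member probe sets were brighter than the median probe set of their array type, 7.04 for MOE430A and 6.17 for MOE430B. The brightness of a probe set depends on its probes, so no level is compared between genes or array types. Hepatocyte markers were bright in every mouse, with a mean profile between 11.47 and 11.96 (median 11.72) over 12 probe sets. By correlation with the other arrays of their type, 6 mice had an array that stood apart (mice 111, 167, 200, 474, 484 and 559), the MOE430A arrays of 4 other mice (416, 560, 608 and 615) resembled the MOE430B array of a different mouse more than their own, and Xist went against the recorded sex in 5 mice (186, 190, 458, 513 and 554). Calls of member genes for sex, liver triglyceride and genotype that were gained or lost without the 6 mice or the 4 mice are given beside the results. The first principal component held 20.4% of the variance on MOE430A and 16.7% on MOE430B.

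Apoa4 varied most among the members. This protein is carried on chylomicrons and high density lipoprotein, and mice express it in liver as well as in intestine. Apoa4_1417761_at had a lowest level of 9.83, a median of 11.99 and a highest of 13.29 over the 60 mice, an 11-fold range. Its SD of 0.677 was above that of 99.6% of the MOE430A probe sets, whose median SD was 0.133. Apoa4_1436504_x_at ran from 11.56 through a median of 13.12 to 14.07, a 5.70-fold range, with an SD above that of 98.3% of MOE430A probe sets. Both probe sets were lowest in male mouse 523 and highest in male mouse 2, and they correlated with each other at r = 0.97.

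The high density lipoprotein genes Apoa1 and Apoa2 had narrower spreads. The 4 Apoa1 probe sets had SDs of 0.304 (Apoa1_1419232_a_at), 0.251 (Apoa1_1455201_x_at), 0.242 (Apoa1_1419233_x_at) and 0.225 (Apoa1_1438840_x_at). They followed one another closely, with r between 0.93 and 0.98, and all 4 were lowest in mouse 608. Apoa1_1419232_a_at, for example, had a lowest level of 12.65, a median of 13.48 and a highest of 13.92. Apoa2 ran from 14.01 to 14.57 with a median of 14.48, and its top value was also the highest value in the whole MOE430A table. Its SD of 0.0867 was above that of only 3.53% of MOE430A probe sets. By mean level, Apoa2, Apoc1, Apoc3 and Apoe were brighter than 99.9% or more of MOE430A probe sets, as were the 4 Apoa1 probe sets. Whether the array narrows differences at such brightness was not tested.

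Among the genes for triglyceride hydrolysis and remnant uptake, Apoc2, the activator of lipoprotein lipase, varied most. Its lowest level was 12.01, its median 12.78 and its highest 13.32 (SD 0.221). Apoa5, which enhances plasma triglyceride hydrolysis, ran from 11.39 through 12.04 to 12.44 (SD 0.208). Apoc3, an inhibitor of triglyceride clearance, ran from 13.05 through 13.38 to 13.60 (SD 0.0970). Apoc1, another inhibitor, ran from 13.20 through 13.52 to 13.71 with an SD of 0.0772, which exceeded that of only 0.928% of MOE430A probe sets. Apoa5 and Apoc3 were both lowest in mouse 111, which has an array apart. Apoe ran from 13.38 in mouse 474 through 13.76 to 13.95 (SD 0.112).

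The probe sets of Apob, the structural protein of very low density lipoprotein, did not follow each other. Apob_1455593_at on MOE430A ran from 9.45 through 10.86 to 11.60 (SD 0.525) and correlated with the first principal component of its array type at r = 0.70. Apob_1457554_at on MOE430B ran from 10.39 through 11.11 to 11.66 (SD 0.292), with r = 0.09 to the first principal component of its own type. Across the mice the r between them was −0.29 (rho −0.37, permutation p = 0.0257 and 0.00328), and 0.02 once the first component of each type was removed. They are therefore described apart. Apom, which carries sphingosine-1-phosphate on high density lipoprotein, ran from 8.90 through 9.89 to 10.59 at Apom_1419095_a_at and from 9.38 through 10.18 to 10.97 at Apom_1419096_at. Both were lowest in mouse 474 and highest in mouse 484, which are among the mice with an array apart, and they correlated at r = 0.88.

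**Figure D1:**
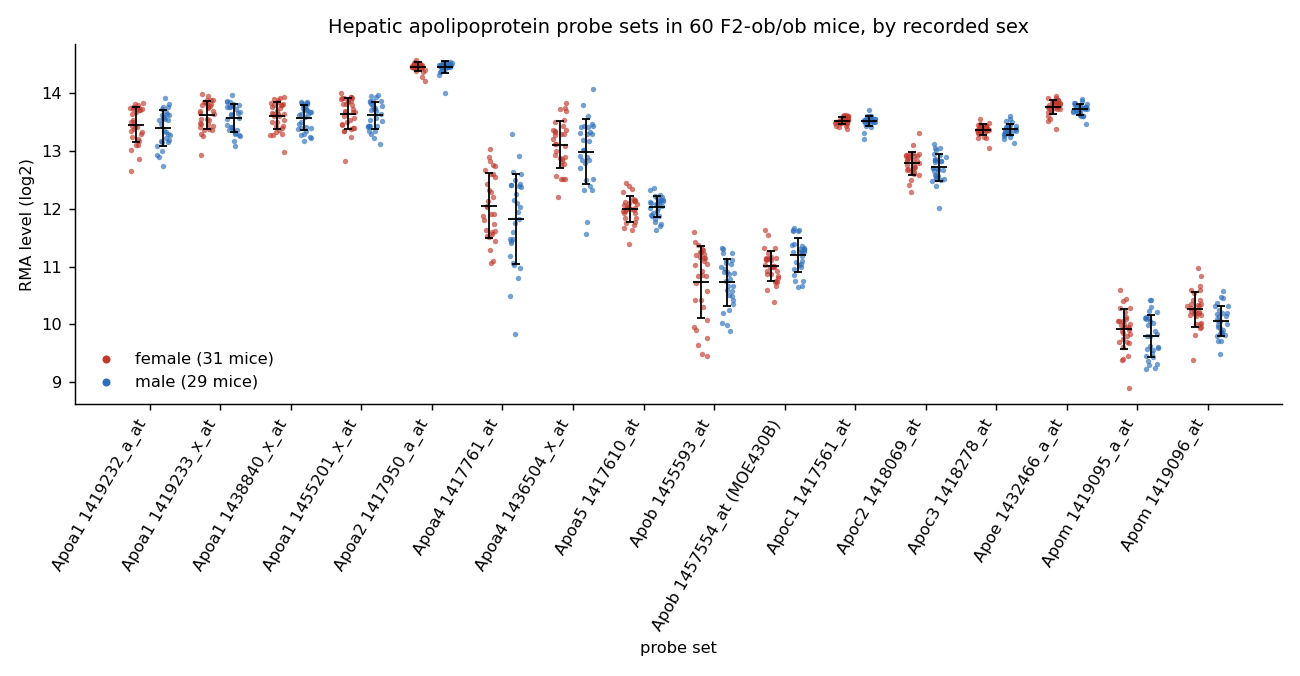
RMA log2 level (vertical axis) of the 16 apolipoprotein probe sets (horizontal axis) in 31 female mice (left of each pair, red) and 29 male mice (right, blue), with the mean and SD as a bar. The widest spreads are those of Apoa4 and of Apob_1455593_at, the female and male points of every probe set overlap, and levels of different probe sets are not comparable.

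Apolipoprotein mRNA was first compared between females and males. No member passed the test (limma, Benjamini-Hochberg adjusted p under 0.05). Over all probe sets 651 of 45,037 did (1.45%), of which 466 were higher and 185 lower in females. At that share, the absence of calls among 16 probe sets does not set the members apart. At an unadjusted p under 0.05 there were 2 of 16 members, against 16% of all probe sets. Apom_1419096_at averaged 10.26 ± 0.306 in females (SD, n = 31) and 10.05 ± 0.257 in males (SD, n = 29), with an adjusted p = 0.118 by limma. Apob_1457554_at averaged 11.01 ± 0.263 in females and 11.20 ± 0.292 in males, with an adjusted p = 0.147 by limma. The groups overlapped in both genes. Without the 6 mice with an array apart, Apom_1419096_at passed the test (adjusted p = 0.0493 by limma), among 1,897 probe sets called, and leaving out mouse 474 alone also gave 1 member called.

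Liver triglyceride was the only deposited phenotype for which a member passed the test. It was known for 59 mice, with a lowest value of 85.3, a median of 572.9 and a highest of 1015 mg/g tissue. The unit is that of the deposited phenotype description. The highest value is more than the weight of the tissue itself, so the scale of the unit is in doubt. Values are given as deposited. Females averaged 526 ± 222 mg/g (SD, n = 31) and males 590 ± 244 mg/g (SD, n = 28). Across all genes 66 of 45,037 probe sets passed the test (0.147%), 31 of them higher and 35 lower with more liver triglyceride. With single mice left out the share called lay between 0.0466% (without mouse 484) and 0.253% (without mouse 167), both mice with an array apart. The count was 104 probe sets without mouse 111, 40 without mouse 223 or 419 and 37 without mouse 523. Of the 16 members 2 passed, and both were Apoa4. At an unadjusted p under 0.05 there were 9 members, from Apoa1, Apoa4, Apob and Apom, where the share over all probe sets was 8.54%. In whole liver fewer cells of a type and less RNA per cell cannot be told apart, here and in the other comparisons.

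Apoa4 mRNA rose with liver triglyceride. In mouse 523, the leanest liver at 85.3 mg/g, Apoa4_1417761_at was 9.83 and Apoa4_1436504_x_at 11.56. In mouse 549, the fattest at 1014.8 mg/g, they were 12.64 and 13.60. For Apoa4_1417761_at the slope was 0.15 ± 0.033 log2 units per 100 mg/g (SE), with r = 0.50, rho = 0.48 and an adjusted p = 0.0317 by limma. For Apoa4_1436504_x_at it was 0.11 ± 0.024 per 100 mg/g, with r = 0.51, rho = 0.49 and an adjusted p = 0.0255 by limma. Permutation p-values were 0.00012 for r and 8e-05 for rho at the first probe set, and 2e-05 and 6e-05 at the second. They ranked 51st and 41st of all probe sets by p. Without mice 523 and 549 the r was 0.42 and 0.43.

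The sign of the relation was the same in both sexes. For Apoa4_1417761_at r was 0.49 in females and 0.57 in males, and for Apoa4_1436504_x_at it was 0.44 in females and 0.61 in males. The slopes of females and males differed by −0.062 ± 0.063 for Apoa4_1417761_at and −0.061 ± 0.046 for Apoa4_1436504_x_at (female minus male, log2 per 100 mg/g, SE), and no probe set of the array passed the test of this difference in limma (adjusted p = 0.817 and 0.745). With females alone or males alone neither probe set passed (adjusted p between 0.149 and 0.48 by limma). On ranks r was 0.48 and 0.49 and neither passed (adjusted p = 0.148 and 0.129 by limma). Without the 6 mice with an array apart r was 0.48 and 0.49 and neither probe set passed (adjusted p = 0.0738 and 0.0621 by limma). Leaving out single mice moved r between 0.44 and 0.54, and the call of Apoa4_1417761_at was lost without mouse 2, 61, 209, 264, 458, 484, 523 or 566 and that of Apoa4_1436504_x_at without mouse 61, 484 or 523 (adjusted p up to 0.137 and 0.112 by limma).

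Apoa1, the main protein of high density lipoprotein, had r between 0.29 and 0.38 with liver triglyceride over its 4 probe sets. None passed the test over all probe sets (adjusted p between 0.25 and 0.459 by limma). The r of Apoa1_1419232_a_at was 0.41 in females and 0.39 in males. Apom ran the other way. Its r was −0.39 at Apom_1419096_at (females −0.33, males −0.41) and −0.34 at Apom_1419095_a_at (females −0.30, males −0.35), with adjusted p-values of 0.223 and 0.317 by limma. Apob_1457554_at had r = 0.31 (adjusted p = 0.423 by limma) and Apob_1455593_at 0.06.

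The remaining 6 members, Apoa2, Apoa5, Apoc1, Apoc2, Apoc3 and Apoe, had r between −0.16 and 0.09 with liver triglyceride. Apoa2 had r = 0.37 in females and −0.26 in males, and the difference of slopes, 0.023 ± 0.010 log2 per 100 mg/g (female minus male, SE), did not pass over all probe sets (adjusted p = 0.561 by limma). Hepatocyte markers and Kupffer cell markers moved with some of these genes. The mean hepatocyte marker profile had r = −0.43 with liver triglyceride, where 1 of 13 hepatocyte marker probe sets, of Ahsg, fell (r = −0.52, adjusted p = 0.0255 by limma). It had r of −0.28 and −0.40 with the Apoa4 probe sets and 0.36 and 0.55 with those of Apom. The mean profile of 13 Kupffer cell and macrophage probe sets, between 7.51 and 8.98, had r = 0.46 with both Apoa4 probe sets, 0.41 to 0.44 with Apoa1 and 0.13 with liver triglyceride. Adipocyte markers (8 probe sets, 7.01 to 7.84) had r = 0.32 with liver triglyceride and 0.06 and 0.00 with Apoa4. Stellate cell and sinusoidal endothelium markers had r between 0.31 and 0.39 with Apoa4 and of 0.07 and 0.15 with liver triglyceride. Bile duct, pancreatic acinar, red blood cell and T and B cell markers had r between −0.03 and 0.23 with Apoa4 and between −0.03 and 0.06 with liver triglyceride. The mean profile of 6 intestinal epithelium probe sets lay between 6.33 and 6.72 and had r = 0.27 and 0.24 with Apoa4 and 0.24 with liver triglyceride. The part of these cell types in the results was not tested.

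**Figure D2:**
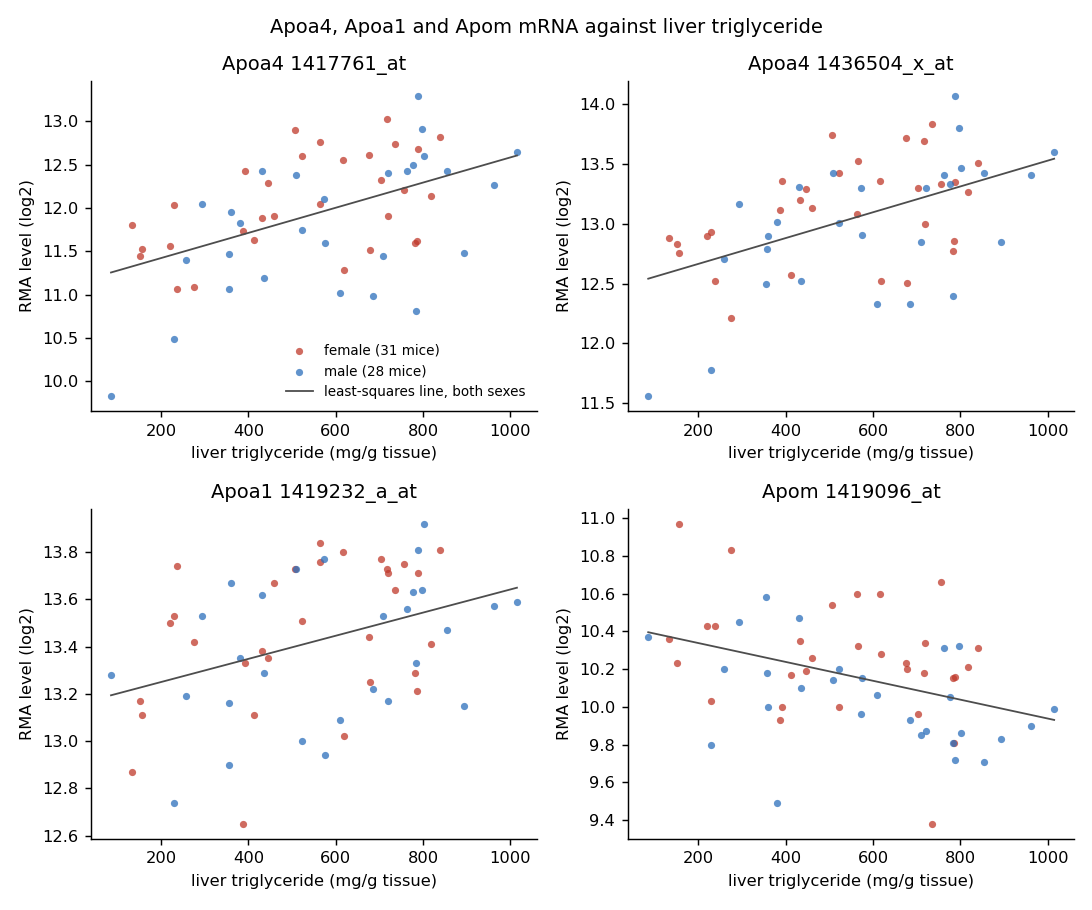
Level (RMA, log2, vertical axes) of both Apoa4 probe sets, Apoa1_1419232_a_at and Apom_1419096_at against liver triglyceride (mg/g tissue, horizontal axes) in 31 females (red) and 28 males (blue), with the least-squares line over both sexes. Both Apoa4 probe sets climb with liver triglyceride (r = 0.50 and 0.51), Apoa1 less so (r = 0.38, not past the adjusted test), and Apom declines (r = −0.39, not past the adjusted test).

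Plasma triglyceride at 10 weeks, an earlier age than the 14 weeks at which livers were taken, gave another picture. It was known for 56 mice (lowest 58, median 102.1, highest 187.7 mg/dl), with a mean of 98.2 ± 26.2 mg/dl in 30 females and 121 ± 32.8 mg/dl in 26 males (SD). Its correlation with liver triglyceride was near 0 (r = −0.03, rho = −0.06, n = 55, permutation p = 0.806 and 0.682). No probe set of the array passed the test (0 of 45,037, 0%), while 2,835 had an unadjusted p under 0.05 in limma (6.29%). Among the members 5 of 16 had one, the 4 probe sets of Apoa1 and Apob_1457554_at.

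Apoa1 had r between −0.30 and −0.35 with plasma triglyceride, the opposite sign of its r with liver triglyceride, and its adjusted p-values were between 0.648 and 0.732 by limma. The r was −0.18 to −0.23 in females and −0.42 to −0.49 in males. Without the 2 mice farthest from the median (455 and 620) it was −0.26 to −0.29. Apob_1457554_at had r = 0.36 (adjusted p = 0.635 by limma), −0.01 in females and 0.51 in males. Apoa4 had r = −0.18 and −0.11 (0.18 in females for both probe sets, −0.40 and −0.32 in males). Apoc2 and Apoe had r = 0.23 and 0.17 in females and −0.31 and −0.43 in males. Without the 6 mice with an array apart the r of Apoe over both sexes was −0.40 (adjusted p = 0.288 by limma), against −0.16 in all mice. The difference between the sexes was not tested for plasma triglyceride.

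**Figure D3:**
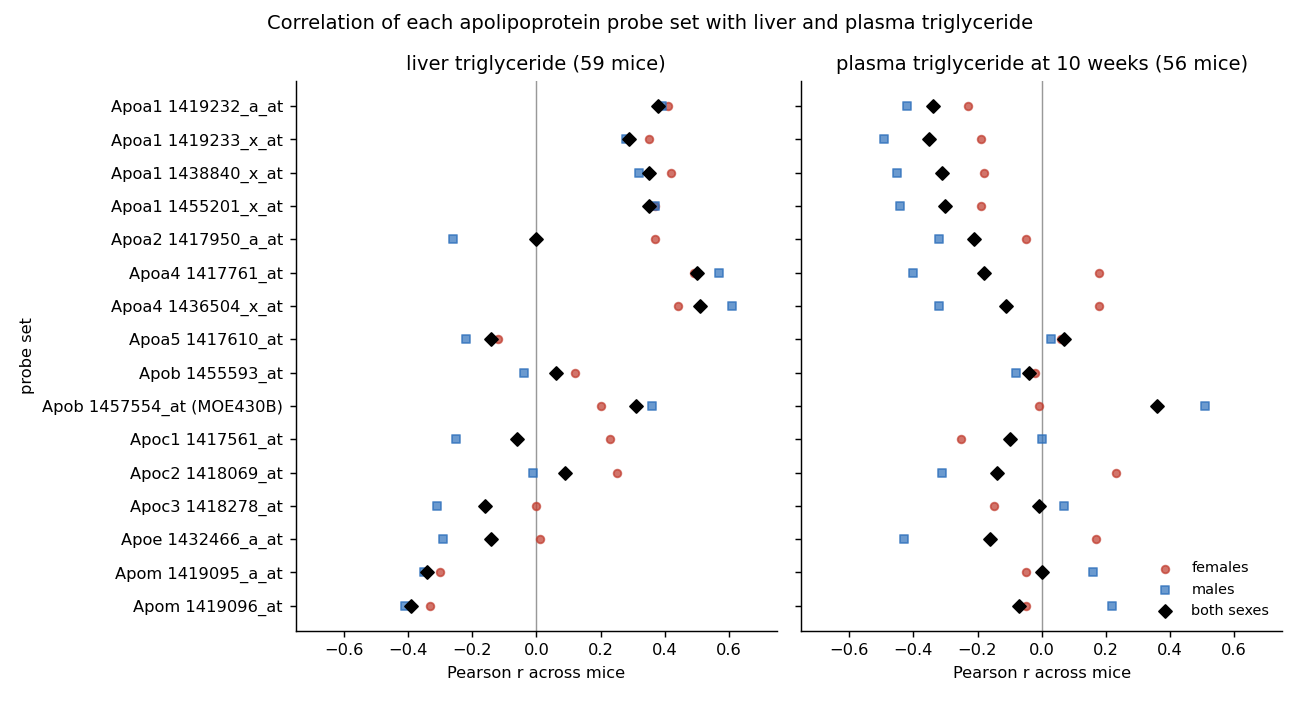
Pearson r across mice (horizontal axes) of each apolipoprotein probe set (vertical axis) with liver triglyceride (left, 59 mice) and plasma triglyceride at 10 weeks (right, 56 mice), for females (red circles), males (blue squares) and both (black diamonds). Apoa4 is farthest right for liver triglyceride (r = 0.50 and 0.51), Apom farthest left (−0.39), and the Apoa1 probe sets lie right of 0 on the left panel and left of 0 on the right panel.

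With the other 7 deposited phenotypes (weight, glucose and log10 insulin at 8 and 10 weeks, and triglyceride at 8 weeks) no member passed the test. Over all probe sets 2 passed for triglyceride at 8 weeks (0.00444%), 11 for glucose at 10 weeks (0.0244%), 6 for insulin at 10 weeks (0.0133%) and 0 for the others (0%). At an unadjusted p under 0.05 in limma the members numbered 6 of 16 for weight at 8 weeks, 7 for weight at 10 weeks, 3 and 7 for glucose at 8 and 10 weeks, 2 and 7 for insulin at 8 and 10 weeks and 0 for triglyceride at 8 weeks. The shares over all probe sets were 4.27%, 7.68%, 5.65%, 9.49%, 3.75%, 7.35% and 6.79% in the same order. Members are counted here as probe sets, and probe sets of 1 gene are not separate evidence. Those at 10 weeks came mostly from Apoa1 and Apoa4. Beside these 2 genes there were Apoc1 and Apoc2 for weight, Apob for glucose and Apoa5 for insulin at 10 weeks. Apoa4 and Apoc1 had the largest r. Apoa4_1417761_at had r = 0.45 with log10 insulin at 10 weeks, 0.44 with weight at 10 weeks and −0.37 with glucose at 10 weeks, with adjusted p-values of 0.13, 0.311 and 0.247 by limma. Apob_1457554_at had r = 0.37 with glucose at both ages (adjusted p = 0.533 at 8 weeks and 0.251 at 10 weeks by limma). Males had higher mean glucose than females at both ages, and a higher mean level of this probe set. With sex as a covariate, members at an unadjusted p under 0.05 in limma numbered 1 for glucose at 8 weeks and 6 at 10 weeks. Whether the r of Apob_1457554_at with glucose holds within each sex was not tested. Apoc1 had r = −0.44 with weight at both ages (adjusted p = 1 and 0.4 by limma). Apoa5 had r = −0.33 and Apoc2 0.10 with log10 insulin at 10 weeks. In all, 144 relations of 16 probe sets with 9 phenotypes were computed.

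Genotype was asked by interval mapping at 544 positions of 19 autosomes, where a LOD score is the base-10 logarithm of the odds for a locus at a position. At a LOD threshold of 3.4, 7,131 of 45,037 probe sets were called (15.8%). The authors took this threshold as a first screen, with a false discovery rate that they described as high. A call is therefore weak evidence for a locus by itself. Among the members 5 of 16 were called, from Apoa2, Apoa4 (both probe sets), Apob and Apoc2. Each call is given with the levels behind it.

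Apoc2 was the only called member with its highest LOD on its own chromosome. The score was 4.55 at 0.0 cM of Chromosome 7, at markers D7Mit56 and D7Mit76 (genome-wide permutation p = 0.00833, Haley-Knott regression, 100,000 permutations). Levels were 12.61 ± 0.164 in 19 mice of genotype A, 12.77 ± 0.208 in 27 of genotype H and 12.93 ± 0.178 in 14 of genotype B (SD). Genotype A minus genotype B was −0.32 ± 0.061 (SE), so genotype B was 1.25-fold higher. The homozygotes overlapped, between 12.29 and 12.93 for A and between 12.59 and 13.32 for B. The LOD stayed at 3.52 or above in every alternative that was run, and at this position the Chromosome 7 neighbours Apoc1 and Apoe had LOD scores of 1.06 and 0.26. In the RefSeq annotation Apoc2 overlaps the gene model Gm44805 and adjoins Apoc4. The distance between the markers and the gene was not worked out, and the promoter of Apoc2 printed at the start is the reference sequence, not that of either genotype.

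Apoa4 had 2 loci that were close to the threshold in both probe sets. On Chromosome 5 at 50 cM, between D5Mit240 and D5Mit136, the LOD was 3.85 for Apoa4_1417761_at (genome-wide permutation p = 0.0519) and 3.18 for Apoa4_1436504_x_at. Apoa4_1417761_at was 11.60 ± 0.651 in 22 mice of genotype A, 11.87 ± 0.646 in 18 of genotype H and 12.38 ± 0.490 in 20 of genotype B (SD), a difference of −0.78 ± 0.18 for A minus B (SE) and 1.72-fold higher levels with B. On Chromosome 8 at 58.1 cM, at D8Mit249, the LOD was 3.45 for Apoa4_1436504_x_at (genome-wide permutation p = 0.0928) and 3.38 for Apoa4_1417761_at. Here the direction was opposite. Apoa4_1436504_x_at was 13.49 ± 0.313 in 13 mice of genotype A, 12.99 ± 0.418 in 22 of genotype H and 12.88 ± 0.506 in 25 of genotype B (SD), a difference of 0.61 ± 0.13 (SE). Without the 6 mice with an array apart, the highest LOD was 2.93 for Apoa4_1417761_at and 2.65 for Apoa4_1436504_x_at, both under the threshold. Apoa4_1436504_x_at was also under it when Haley-Knott regression held sex (3.32) or the first principal component (3.32) fixed. Without the 4 mice whose MOE430A array was closer to another mouse's MOE430B array, the highest LOD of Apoa4_1436504_x_at was 3.15, on Chromosome 5 at 49.1 cM.

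The Chromosome 5 position was shared in part by Apoa1 and by liver triglyceride. Apoa1_1419233_x_at had its highest LOD there (2.96), with levels of 13.48 ± 0.243 in genotype A, 13.59 ± 0.236 in H and 13.73 ± 0.180 in B (SD, n = 22, 18 and 20), and the other Apoa1 probe sets had LOD scores of 1.90 to 2.37. Apoa1_1419232_a_at and Apoa1_1455201_x_at had their highest LOD, 2.69 and 3.08, on Chromosome 16 at 26.8 cM. At the Chromosome 8 position Apoa1 had LOD scores of 2.18 to 2.58. Liver triglyceride itself had a LOD of 2.11 on Chromosome 5 at 50 cM and 0.85 on Chromosome 8. None of these reached the threshold. Since the same mice, phenotype and correlated genes are involved, these scores are not independent of the correlations above.

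Liver triglyceride had its highest LOD, 3.26, on Chromosome 1 at 64.4 cM (genome-wide permutation p = 0.137), with 744.4 ± 150.7 mg/g in 13 mice of genotype A, 453.9 ± 214.5 in 25 of H and 562.6 ± 228.3 in 21 of B (SD). Apoa1_1438840_x_at had its highest LOD, 3.19, at the same position, and like liver triglyceride it was lowest in heterozygotes, with 13.69 ± 0.180 in genotype A, 13.48 ± 0.241 in H and 13.67 ± 0.165 in B (SD, n = 13, 26 and 21). Apoa4 had LOD scores of 1.80 and 1.95 there. Plasma triglyceride at 10 weeks had its highest LOD, 2.46, on Chromosome 12 at 25 cM (genome-wide permutation p = 0.197, Haley-Knott regression). No member had a LOD above 1.02 at that position. Apob is on the same chromosome, where the highest LOD was 0.57 for Apob_1455593_at and 1.04 for Apob_1457554_at.

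Apob_1457554_at had a LOD of 4.35 on Chromosome 4 at 36.9 cM, at D4Mit17 (genome-wide permutation p = 0.0124). Its levels were 10.88 ± 0.225 in 19 mice of genotype A, 11.23 ± 0.254 in 25 of H and 11.16 ± 0.275 in 16 of B (SD), so the mean was lowest in genotype A. The groups overlapped, between 10.39 and 11.27 for A, 10.75 and 11.64 for H and 10.64 and 11.66 for B. With sex as a covariate the score was 3.34. Apob_1455593_at had its highest LOD, 2.88, on the same chromosome at 55 cM with the reverse order of homozygotes, 10.91 ± 0.470 in 17 mice of genotype A, 10.80 ± 0.463 in 32 of H and 10.26 ± 0.541 in 11 of B (SD).

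The highest score of any member, 7.48 for Apoa2 on Chromosome 6 at 20 cM, lay in a gap of the map. The flanking markers D6Mit86 and D6Mit224 stand at 0.0 and 30.4 cM. The leptin gene, for whose ob mutation every mouse was homozygous, is on the same chromosome. The most likely genotype was A in 44 mice and H in 16, and none was B. Only 45% of the mice had a genotype of high probability at this position. Apoa2 levels were 14.47 ± 0.0577 in genotype A and 14.42 ± 0.135 in genotype H (SD), which overlap. Haley-Knott regression gave a LOD of 0.98 at this position and a highest LOD of 3.24 on Chromosome 5 (genome-wide permutation p = 0.152). With normal scores in place of the levels the highest LOD was 3.80, on Chromosome 10, and without the 6 mice with an array apart it was 2.49. Apoc1 had a peak of 3.23 in the same interval, with 1.02 by Haley-Knott regression.

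The other members were under the threshold. Apoc3 reached 3.26 on Chromosome 2 at 85.4 cM, with 13.44 ± 0.0796 in genotype A, 13.37 ± 0.0795 in H and 13.33 ± 0.104 in B (SD, n = 16, 24 and 20). Apom reached 3.09 (Apom_1419096_at) and 2.29 (Apom_1419095_a_at) on Chromosome 18, and Apoe 2.45 on Chromosome 1. Apoa5 reached 2.26 on its own chromosome, 9, at 40 cM, with 11.89 ± 0.253 in genotype A, 12.02 ± 0.177 in H and 12.13 ± 0.152 in B (SD, n = 15, 31 and 14). Without the 6 mice with an array apart the highest LOD lay on another chromosome for 9 of the 16 member probe sets. Of these 9, 8 were under the threshold in all mice. Without the 4 mice whose MOE430A array was closer to another mouse's MOE430B array it did so for 5. For example, Apoa1_1438840_x_at and Apoa1_1419233_x_at then peaked on Chromosome 16 (LOD 2.94 and 2.29) and Apob_1455593_at on Chromosome 10 (LOD 3.33) without the 6 mice.

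**Figure D4:**
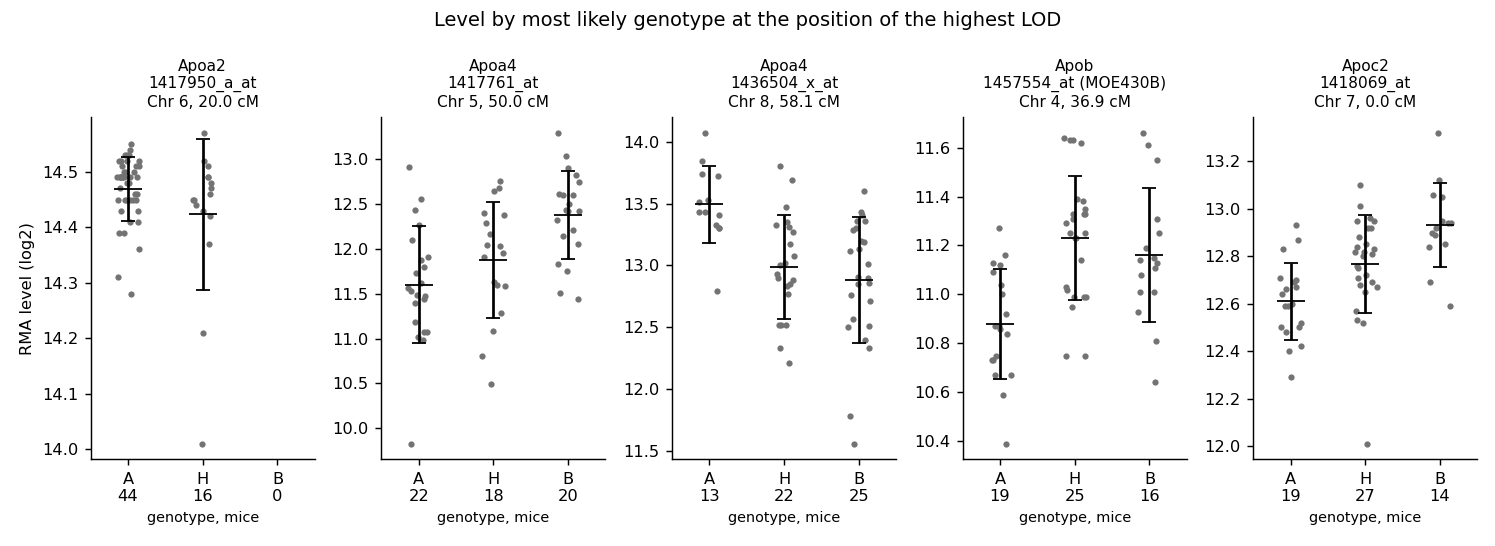
RMA log2 level (vertical axes) of the 5 called probe sets by most likely genotype A, H or B (horizontal axes, with the number of mice) at the position of the highest LOD, each point a mouse, with the mean and SD. The mean is lowest in A and highest in B for Apoc2 and Apoa4_1417761_at, highest in A for Apoa4_1436504_x_at and lowest in A for Apob_1457554_at, Apoa2 has no B mice, and the groups overlap in each panel.

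Coordinate expression among the members was described by pairs. Of 97 pairs of different members on MOE430A none reached r = 0.7, which 0.176% of all MOE430A pairs reached. At so small a share, this count does not set the members apart. At r = 0.5 or greater there were 11 pairs, against 2.84% of all pairs. Probe sets of 1 gene are not separate evidence, and 8 of the 11 pairs were between Apoa1 and Apoa4, which share a cluster on Chromosome 9. Their r was 0.54 to 0.63 and their rho 0.60 to 0.67, with adjusted p-values between 7.45e-05 and 0.00231 by limma. With sex or the first principal component removed the 8 values stayed between 0.54 and 0.63, and without the 6 mice with an array apart they were 0.53 to 0.61. The permutation p of each pair was 1e-05, the smallest the 100,000 permutations can give, and without the 2 farthest mice r was 0.58 to 0.62. The other genes of that cluster had lower r. Apoc3 had r = −0.23 to −0.35 with Apoa1 and Apoa4, and Apoa5 had r between −0.06 and 0.17.

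The other 3 pairs joined Apoa2, Apoc1 and Apoc3. Apoa2 and Apoc1 had r = 0.68 (rho = 0.52, adjusted p = 0.000312 by limma), but both were lowest in mouse 517, at 14.01 and 13.20, and r was 0.49 without the 2 mice farthest in Apoa2. Apoa2 and Apoc3 had r = 0.53 (adjusted p = 0.0574 by limma), and Apoc1 and Apoc3 had r = 0.52 (adjusted p = 0.0317 by limma). On Chromosome 7, Apoc1 and Apoe had r = 0.44 (0.29 without the 2 farthest mice). Apoc2 had r = 0.41 and 0.43 with Apoa4 and 0.43 with Apoa5, with adjusted p-values of 0.0316, 0.0257 and 0.00825 by limma. Apob_1455593_at had r = 0.42 with Apoe, and 0.02 with the first principal component removed.

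**Figure D5:**
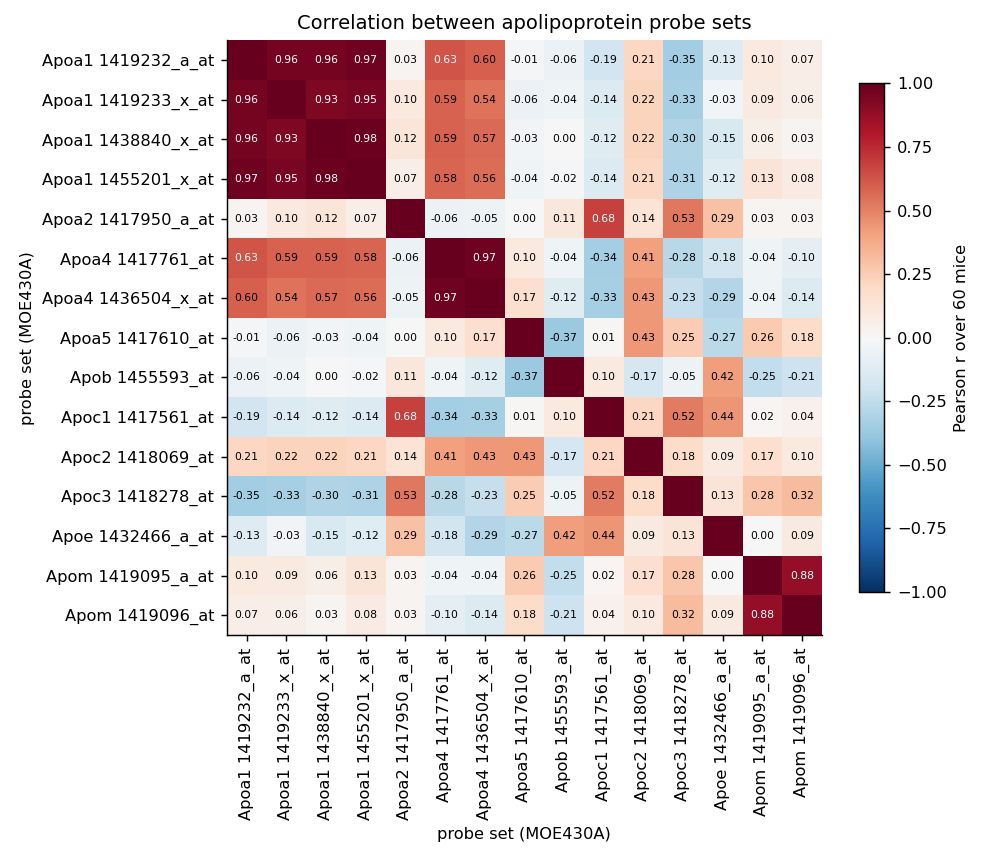
Pearson r over 60 mice between the 15 apolipoprotein probe sets on MOE430A (both axes), from −1 (blue) to 1 (red). Apart from probe sets of the same gene, Apoa1 with Apoa4 (0.54 to 0.63) and Apoa2 with Apoc1 (0.68) are the highest, and no pair of different genes reaches 0.7.

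The transcripts most like each member, with the 10 member genes left out of the search, differed from gene to gene. For Apoa4_1436504_x_at they were 2010003K11Rik (r = 0.755), Anxa2, a membrane-binding annexin (0.751), and Tmsb10, an actin-binding thymosin (0.738). Apoa1_1455201_x_at was closest to Gstp3, a glutathione transferase (0.683), Uba7 (0.654) and Frmd4b (0.615). Among these other genes Apoa2 and Apoc1 were both closest to Alb, the albumin gene (0.781 and 0.636), followed by Selenop and Cyp2e1 for Apoa2 and by Maoa and Rbp4 for Apoc1. Apoa5 was closest to the respiratory chain genes Cox4i1 (0.725), Ndufs8 (0.719) and Ndufb11 (0.717), and Apoc3 to Hpd (0.634), Apoh (0.627) and Cyp2c37 (0.618). Apom_1419096_at was closest to F7, coagulation factor VII (0.676), then Ebp (0.671) and Dmac2 (0.669). Apoe was closest to Cdk8 (0.702), Zmynd11 and Mdh1, and Apob_1457554_at to Ino80d (0.607), Prpf38b and Dennd1b. Apoc2 had the weakest, Mdh2 at 0.506 (adjusted p = 0.221 by limma). Apob_1455593_at had r = 0.905 with Mtpn, 0.896 with Itgav and 0.886 with Matr3.

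Other genes of lipoprotein metabolism were also set beside liver triglyceride. None of 17 probe sets of other apolipoproteins, 39 of very low density lipoprotein assembly, 33 of lipoprotein receptors, 22 of plasma lipases and transfer proteins or 15 of lipid efflux transporters passed the test, whose share over all probe sets was 0.147%. At so small a share, the absence of calls does not set these lists apart from all probe sets. Their median r was between −0.12 and 0.09, against −0.02 over all probe sets. Among the plasma proteins, Pltp, which transfers phospholipid between lipoproteins, had r = 0.43 with liver triglyceride (adjusted p = 0.135 by limma) and 0.63 with Apoa1_1419232_a_at, and Lcat, the enzyme that Apoa1 activates, had r = −0.45 (adjusted p = 0.0984 by limma). Tm6sf2, which acts in lipidation of very low density lipoprotein, had r = −0.37 (adjusted p = 0.261 by limma).

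Of 64 probe sets of transcription factors for apolipoprotein genes 1 rose with liver triglyceride, Pparg (r = 0.50, adjusted p = 0.0304 by limma), which also had r = 0.50 with Apoa4_1436504_x_at. Hnf4a_1427001_s_at, a hepatocyte activator of many apolipoprotein genes, had r = −0.38 with liver triglyceride and −0.14 with Apoa4_1436504_x_at. Of 38 probe sets of triglyceride synthesis and storage 3 rose, those of Cidea, Cidec and Gpam, the last an acyltransferase of triglyceride synthesis (r = 0.51, adjusted p = 0.0233 by limma; named after its value was seen). The lipid droplet genes Cidea and Cidec had r = 0.74 and 0.57 with liver triglyceride (adjusted p = 1.3e-07 and 0.00383 by limma), and Cidec had r = 0.70 with Apoa4_1436504_x_at. Over these 7 lists 42 of 228 probe sets had a called LOD, 16 of them on the chromosome of a called member peak, and the 4 that peaked at the very position of a member are named here for that coincidence. Cidec (LOD 4.64) and Pltp (LOD 4.00) had their highest LOD at the same position as Apoa4_1417761_at, Chromosome 5 at 50 cM. Abca1, the transporter that loads Apoa1 with lipid, had a LOD of 4.05 at the position of Apob_1457554_at on Chromosome 4. Its probe set was dim, with a mean of 5.41 where the median MOE430A probe set had 7.04. The carboxylesterase gene Ces1f had a LOD of 5.06 at the position of Apoa4_1436504_x_at on Chromosome 8. Whether any of these 4 peaks lies on the chromosome of its own gene was not worked out. Called loci made up 6 of 38 probe sets in the list of Cidec, 5 of 22 in that of Pltp, 1 of 15 in that of Abca1 and 9 of 39 in that of Ces1f, against 15.8% of all probe sets.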

How the data were processed

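The authors took cell intensities from MAS5, summarised them by RMA within each array type and deposited log2 values (versions not given). Insulin was deposited by the authors as log10 of ng/ml. Precision is limited by the number of mice. Leaving out 64 control probe sets per type, 22,626 MOE430A and 22,411 MOE430B probe sets remained (those of MOE430A where both types carry 1 of 100 shared probe sets), of which 34,945 had 1 symbol, 932 several and 9,160 none. Array medians were 6.97 to 7.09 on MOE430A and 6.15 to 6.20 on MOE430B. The types were normalized apart.

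Each phenotype, and sex (female minus male), was the covariate of a limma 3.58.1 fit (R 4.3.3) over all probe sets of both types, with Benjamini-Hochberg adjustment at 0.05. Pearson's r and Spearman's rho had 100,000 two-sided permutations (the smallest possible p is 1e-05). Genotypes at 194 markers (6.88% of calls missing) were turned into probabilities at every marker and every 5 cM by a hidden Markov model (Haldane map, genotyping error 0.0001). Loci were scanned by EM interval mapping as in R/qtl, stopping at a tolerance of 0.0001 or 1,000 iterations, and by Haley-Knott regression as an alternative and for permutations. The scans ran in Python 3.11.15 (numba 0.67.0, numpy 2.4.6, pandas 2.3.3, scipy 1.17.1). Group means use the most likely genotype. Figures were drawn with matplotlib 3.10.9. An array was said to stand apart if its median correlation to arrays of its type was over 3 MAD under the median of those correlations.

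Members and gene lists were chosen with earlier results of these data known. The named genes were the members, the 3 single-symbol probe sets most correlated with the brightest probe set of each member (for Apob, that of MOE430B; values of Apob_1455593_at were added after they were seen), and, from the lists, the 2 highest and 2 lowest r with liver triglyceride and those with a called LOD on the chromosome of a member peak, of which the text names a part. The fit and the scans were tested on simulated data. Alternatives changed the mapping method, markers, covariates, filter, scale and mice.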

Additional observations from a re-analysis of the deposited data

How the results depend on the processing

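Apoa4 stayed past the test for liver triglyceride with sex or the first principal component as a covariate. The same held among the brighter probe sets and with log10 of liver triglyceride. It also held without the 5 mice whose Xist went against the recorded sex. So it did without the 4 mice whose MOE430A array was closer to another mouse's MOE430B array. Adjusted p-values over these alternatives were between 0.008 and 0.0344 by limma. The number of members called for liver triglyceride was 0 without the 6 mice with an array apart, 0 on ranks, 0 in females alone and 0 in males alone, and between 0 and 2 when each mouse was left out in turn. Over all probe sets the 66 calls became 14 on ranks, 14 in females, 1 in males, and were 0.331% and 0.235% of all probe sets, against 0.147%, after the first principal component entered as a covariate and on log10 liver triglyceride. For plasma triglyceride at 10 weeks the count of members stayed at 0 in every alternative, from 0 to 0 with a mouse left out, and 8 probe sets passed over all genes without the mice with an array apart. For sex the count of members was 1 without the mice with an array apart and between 0 and 1 with a mouse left out, while calls over all probe sets were 1,897 without the mice apart, 248 with the first principal component and 423 to 1,145 with a mouse left out, against 651. For glucose at 10 weeks calls over all probe sets were 0 with sex as a covariate and 48 without the mice apart, against 11, for insulin at 10 weeks 12 with sex, against 6, and for triglyceride at 8 weeks 0 with sex, against 2. The number of members with a LOD of 3.4 or greater was 2 with sex as a covariate in Haley-Knott regression, 3 with the first principal component in it and 2 without the mice apart, and 4 or 5 in the other alternatives. The causes were not tested. The r of both Apoa4 probe sets with liver triglyceride stayed positive in every alternative. For the called loci the direction was not computed in the alternatives. Some alternatives were chosen after seeing the data. They were those without mice with discordant Xist, without mouse 608 and without the 4 mice closer to another mouse's MOE430B array. The test of the slope difference between sexes was also chosen after seeing the data. No paired analysis was possible because the numbers shared between groups name the same mice on both array types, which were normalized apart and are not compared. For arrays the number of mice limits what could be detected.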
